A study of Mus musculus with 12 samples.

Results

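The interferon response genes were followed here as a set of 9 mouse genes, out of 21924 protein-coding gene names of the annotation: the transcription factors Stat2, Irf1, Irf7 and Irf9, the RNA sensors Ifih1 and Ddx58, and the antiviral effectors Ifit1, Ifit3 and Isg15. Called chromatin regions were taken as theirs where they overlapped the gene body or the 20 kb on either side of it. This gave 18 of 31617 regions for H3K27ac, acetylation of lysine 27 of histone H3 and a mark of active promoters and enhancers. For H3K27me3, trimethylation of the same residue and a mark of Polycomb repression, it gave 11 of 28047 regions. The rule used names and positions, and the genes were listed when earlier results of these data were known.

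The marks were profiled by CUT&RUN, in which an antibody directs a nuclease to the mark and the released DNA is sequenced, in mouse mesenchymal stem cells (MSCs), multipotent stroma with bone, fat and cartilage potential. The 12 libraries formed 4 groups of 3, namely young (3 to 5 months) and old (18 to 22 months) mice for each mark. All cells had been cultured under 2% O2, and the cells of a sample were divided between the 2 antibodies. The labels give neither strain nor sex, and do not say whether a sample was 1 animal or a pool, so p-values measure the spread between these samples, which may be technical.

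Interferons are secreted when a cell senses viral nucleic acid. Ifih1 (MDA5) and Ddx58 (RIG-I) recognise viral double-stranded RNA in the cytosol, and signalling from them activates factors such as Irf7, which turns on type I interferon genes. Secreted interferon binds its receptor and activates a complex with Stat2 and Irf9 in it, which binds the interferon-stimulated response element (ISRE) of target genes. The gamma-activated site (GAS) is the element known from genes that respond to interferon gamma. Ifit1 and Ifit3 belong to a family that binds foreign RNA and blocks its translation, and Isg15 is a ubiquitin-like protein that is attached to other proteins.

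The letters of these elements were looked up in the promoters of the members, to show which genes carry them before the marks are described. Promoters ran from 250 bases before to 50 bases after a RefSeq start (GRCm38.p6), and all 9 members had one. The ISRE was searched as GAAANNGAAA and the GAS element as TTCNNNGAA, on both strands. An ISRE match was held by 6 of the 9 members, against 3.99% of 27025 genes (3.44% of their 32851 promoters). A GAS match was held by 1 member, Irf1, against 9.55% of genes (8.30% of promoters). Neither was found in the searched windows of Irf7 and Irf9. The Irf9 windows, chr14:55603735-55604034 and chr14:55604329-55604628, lie downstream of the Irf9 start site used for the marks (chr14:55603571). The bases before that start were not searched. The stretches around the matches are printed 5′ to 3′ on the strand of the gene, with the matched letters in capitals and positions counted from the RefSeq start. They come from chr4:156200845-156200926 (minus strand, -108 to -27) for Isg15, chr19:34640755-34640843 (plus, -134 to -46) for Ifit1 and chr19:34583343-34583446 (plus, -186 to -83) for Ifit3. The others are chr10:128270248-128270315 (plus, -250 to -183) for Stat2, chr2:62646206-62646233 (minus, 23 to 50) for Ifih1, chr4:40239804-40239833 (minus, -8 to 22) for Ddx58 and chr11:53769894-53769962 (plus, -120 to -52) for the GAS match of Irf1.
Isg15: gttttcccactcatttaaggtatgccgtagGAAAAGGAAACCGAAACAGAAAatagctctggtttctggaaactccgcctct
Ifit1: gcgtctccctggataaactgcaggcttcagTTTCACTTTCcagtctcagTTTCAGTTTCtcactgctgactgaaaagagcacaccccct
Ifit3: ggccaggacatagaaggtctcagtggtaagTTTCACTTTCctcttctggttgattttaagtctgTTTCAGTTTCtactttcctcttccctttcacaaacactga
Stat2: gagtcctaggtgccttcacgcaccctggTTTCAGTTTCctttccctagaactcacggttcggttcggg
Ifih1: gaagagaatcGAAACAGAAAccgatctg
Ddx58: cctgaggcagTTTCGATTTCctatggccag
Irf1: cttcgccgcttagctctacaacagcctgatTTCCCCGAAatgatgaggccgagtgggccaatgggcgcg
The 3 effectors carried more than 1 match each, 3 overlapping ones in Isg15 and 2 separate ones in Ifit1 and in Ifit3, whereas Stat2, Ifih1 and Ddx58 carried 1. A match describes letters and is not evidence of binding.

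The marks over the start sites of the members were counted by role. A region within 1 kb of the start site was present for H3K27ac alone in 6 of 9 members, for H3K27me3 alone in 1 and for neither in 2. All 4 transcription factors and both RNA sensors were in the H3K27ac group. Of the effectors, the start of Ifit1 lay in an H3K27me3 domain, and the starts of Ifit3 and Isg15 lay in no called region of either mark. Over all protein-coding genes, 44.2% had H3K27ac alone at the start site, 25.9% H3K27me3 alone, 7.42% both and 22.5% neither. With or without the other mark, 51.6% had an H3K27ac region and 33.3% an H3K27me3 region there. Without a called region the tables hold no value, so the signal at the Ifit3 and Isg15 starts is unknown, not 0.

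**Figure D1:**
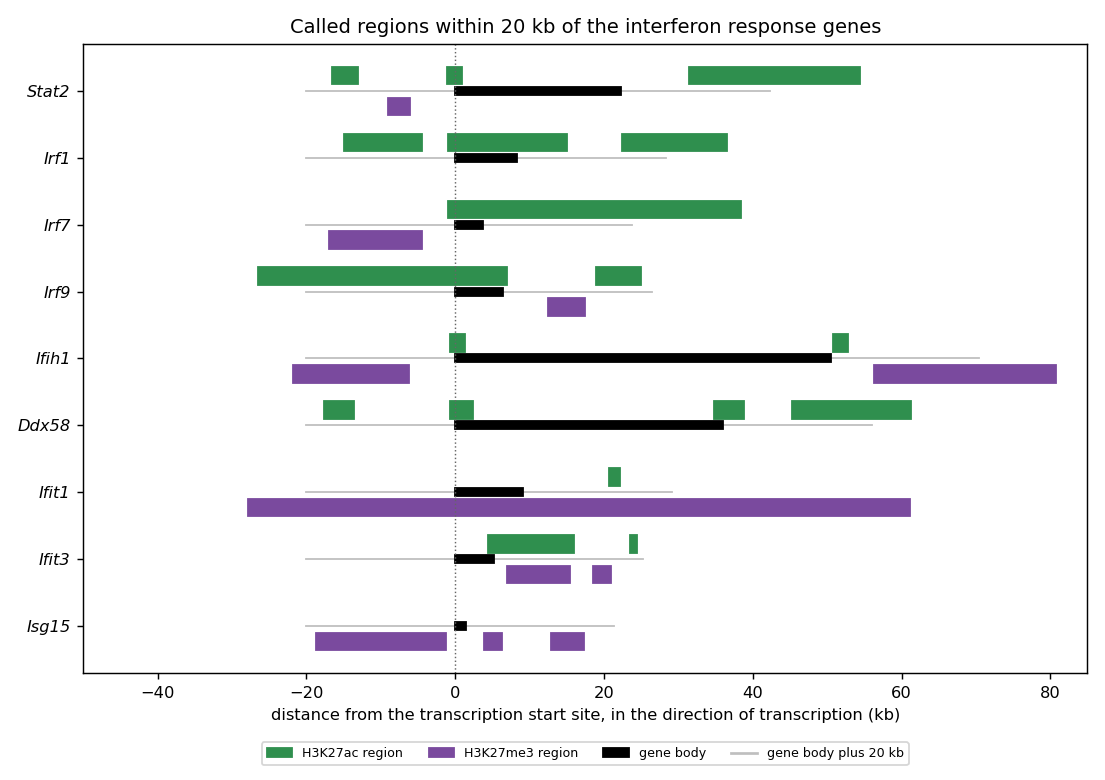
Called H3K27ac regions (green, above each gene) and H3K27me3 regions (purple, below) around the 9 genes, by distance in kb from the transcription start site in the direction of transcription; black bars are gene bodies and grey lines the windows of 20 kb on either side. H3K27ac covers the start sites of the 6 regulators and sensors, while the Ifit1 start lies inside an H3K27me3 region of 89 kb and Isg15 has H3K27me3 regions only.

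The wider interferon pathway, a list of 78 genes, was counted in the same way. H3K27ac lay at the start sites of 53 of them and H3K27me3 at 28, with 10 carrying both and 7 neither. All 7 receptor and kinase genes (Ifnar1, Ifnar2, Ifngr1, Ifngr2, Jak1, Jak2 and Tyk2) and 9 of 10 sensors and adaptors, among them Mavs and Tlr3, had H3K27ac. Of 8 ligand genes, 5 had H3K27me3 (Ifna1, Ifna2, Ifna4, Ifna5 and Ifnk) and 1 had H3K27ac (Ifnb1, encoding interferon beta). The H3K27ac region over the Ifnb1 start rested on only 0 to 8 reads per library. A further H3K27ac region within 1 kb of that start lay past the end of the gene. Effectors were split, with H3K27ac at 29 and H3K27me3 at 18 of 45. Mx1, Rsad2, Oas2 and Oas3, all antiviral effectors, had H3K27me3 only, whereas Ifit2, Ifitm3 and Bst2 had H3K27ac only. These shares are counts of genes, some of which share a region, and were not tested.

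**Figure D2:**
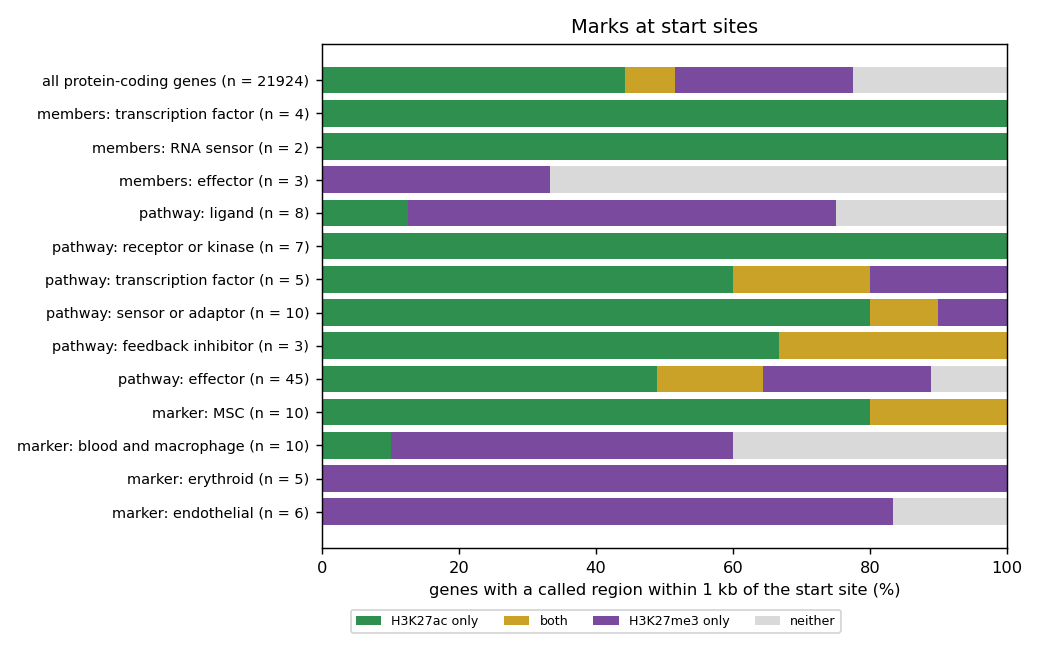
Share of genes (x axis, %) with a called region within 1 kb of the start site, for H3K27ac only (green), both marks (yellow), H3K27me3 only (purple) or neither (grey), over all protein-coding genes, the members by role, the pathway list by role and cell type markers. The bars of the receptors and kinases and of the member transcription factors are green throughout, and ligand bars are mostly purple.

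The cell type of the labels was read from the same tables. H3K27ac lay at the start sites of all 10 MSC marker genes, such as Pdgfra, Thy1 and Ly6a, and H3K27me3 at 2 of them as well. Of 10 blood and macrophage markers, 1 start site (Cd68) had H3K27ac, in a region of 44.5 kb that also covered Eif4a1 and Mpdu1. No erythroid marker of 5 and no endothelial marker of 6 had H3K27ac, and 5 of each had H3K27me3. No region of these marker lists passed the test between old and young MSCs. H3K27me3 at the erythroid markers was lower in old MSCs in 5 of 5 regions (median log2 fold change -0.24, 0 called), where 64.1% of all 5491 H3K27me3 regions at starts were lower (median -0.06). The endothelial and the blood and macrophage markers each had 3 lower and 2 higher. The part of other cell types in the values of the members was not tested.

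The values that follow are the deposited signals, read numbers relative to library size and to a constant length, taken as 0.5 kb, not to the length of the region. They were scaled here between the libraries of a mark. Only signal per kb of region is therefore compared between genes. Total reads were worked out from the value of 1 read with that constant. They came to 2750953 to 5541429 for H3K27ac libraries and 3622108 to 9947515 for H3K27me3 libraries, and old replicate 2 was the shallowest library of both marks. A member region held 3 to 246 reads per library for H3K27ac and 2 to 924 for H3K27me3. Fold changes are log2 values of old over young MSCs, fitted with limma and adjusted over all regions of the table, and no region was removed for low values.

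Per kb, the H3K27ac start regions differed between members. That of Ddx58 was among the densest, with a mean of 4.03 scaled signal per kb over the 6 samples, above 98.0% of the 8408 H3K27ac regions that lie at protein-coding starts. The Stat2 start region followed with 3.47, above 93.6%. Both regions were short, and these densities rest on few reads. Ddx58 held 17 to 32 reads per library over 3 kb, and Stat2 8 to 24 over 2 kb. Irf7, Irf9 and Ifih1 lay close together at 2.05, 2.01 and 2.01, and Irf1 had 1.79, against a median of 2.35 for the regions at starts. For Irf7, Irf9 and Irf1 this is a mean over long regions. The regions of Irf7 and Irf9, 39.5 kb and 33.5 kb long, also covered the starts of the neighbours Phrf1 and of Emc9, Psme1, Psme2 and Rnf31, so their signal cannot be assigned to 1 gene. The H3K27me3 domain over Ifit1 had 2.13 per kb, near the median of 2.04 for H3K27me3 regions at starts.

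Between old and young MSCs, none of the 18 H3K27ac regions of the members passed an adjusted p-value of 0.05, where 0.0822% of all H3K27ac regions did. The signal was higher in old MSCs in 7 regions and lower in 11, with a median log2 fold change of -0.03 against -0.0028 over all regions. At an unadjusted p under 0.05 there were 2 regions, with 9.6% of all regions at that level. All old samples lay above all young ones in 1 region and below them in 2, shares that over the whole table were 7.09% and 7.42%. These counts are small and cover regions that neighbour each other, and they were read as a description.

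**Figure D3:**
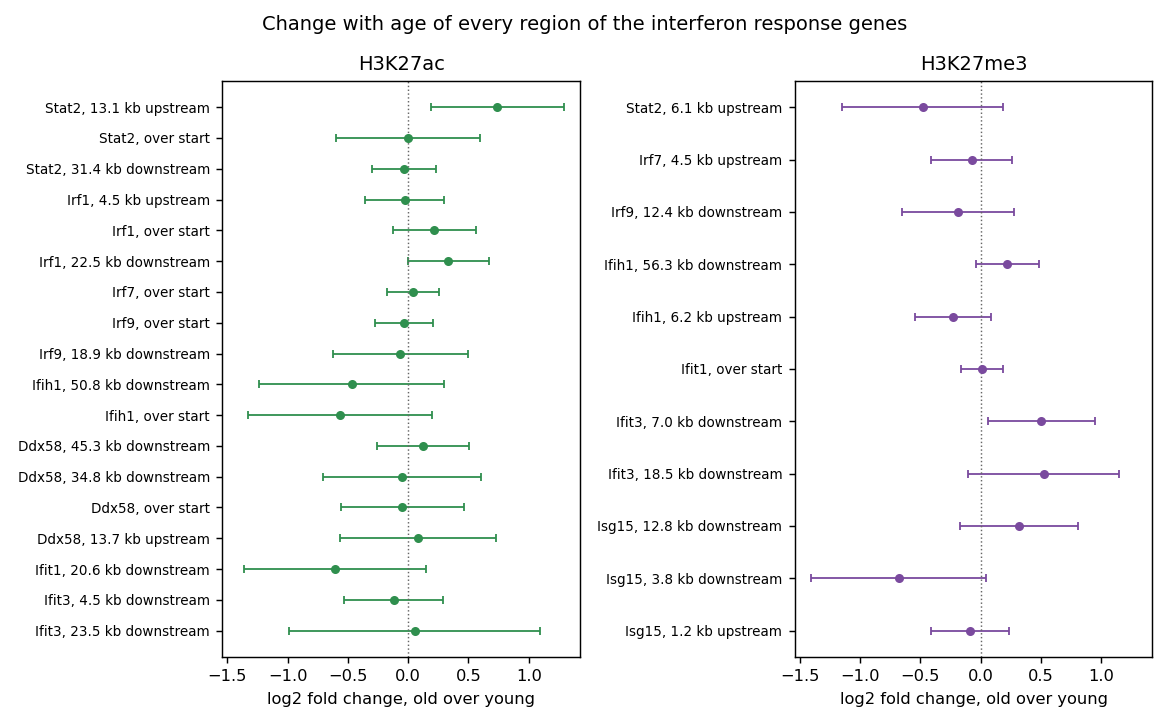
Log2 fold change of old over young MSCs (points, x axis) with its 95% confidence interval (bars) for each of the 18 H3K27ac and 11 H3K27me3 regions, named by gene and by distance from the start site. Intervals exclude 0 for the Stat2 region 13.1 kb upstream and the Irf1 region 22.5 kb downstream in H3K27ac and for the Ifit3 region 7.0 kb downstream in H3K27me3, and none of these passes adjustment over the table.

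Among the transcription factors, Stat2, which acts together with Irf9, had the region with the smallest p-value. It lay 13.1 kb upstream of the start, at chr10:128254001-128257500, was 3.5 kb long and covered the start of the neighbouring gene Apon. Its scaled signal was 5.88, 6.35 and 7.89 in the young and 10.4, 14.9 and 9.68 in the old samples. Every old sample was above every young one. The log2 fold change was 0.74 (SE 0.27, 95% confidence interval 0.19 to 1.29), with an unadjusted p of 0.0097 and an adjusted p of 0.338. It rested on 11 to 26 reads per library, and without old replicate 2, the highest and shallowest sample, it was 0.56. In bulk libraries, more cells with the mark and more mark per cell cannot be told apart.

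At the start of Stat2 itself (chr10:128269501-128271500, over the promoter stretch printed above), no such difference was seen. The scaled H3K27ac signal was 7.84, 6.35 and 6.58 in young and 5.98, 6.29 and 8.66 in old samples. The groups overlapped, and the fold change of -0.0012 had an interval from -0.60 to 0.60. An H3K27me3 region of 3.0 kb lay between the H3K27ac regions, 6.06 kb upstream of the start. It measured 5.93, 5.43 and 3.40 in young and 4.58, 3.98 and 1.90 in old samples. The old mean was the lower but the groups overlapped, with a fold change of -0.48 (SE 0.32) and an adjusted p of 0.532. Old replicates 2 and 3 held 7 and 6 reads there, and without old replicate 3 the fold change was -0.15.

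Irf1, a factor induced by interferon gamma and the member with the GAS match, had 3 H3K27ac regions and no H3K27me3 region in its window. The region over its start was 16 kb long (chr11:53769001-53785000) and also covered the start of Gm17334. It measured 29.7, 26.5 and 22.7 in young and 35.1, 33.0 and 24.5 in old samples. Only the lowest old sample lay within the young range, with a fold change of 0.22 (SE 0.17) at an adjusted p of 0.728. The region 4.51 kb upstream was denser, with 3.23 scaled signal per kb, above 92.5% of all H3K27ac regions. Its fold change was -0.03 (adjusted p of 0.977), with overlapping groups. The region 22.5 kb downstream had a fold change of 0.33 with an unadjusted p of 0.0493, an adjusted p of 0.518 and overlapping groups.

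Irf7, the factor that amplifies type I interferon production, differed little between the ages. The region over its start (chr7:141228001-141267500) measured 80.4, 84.2 and 74.0 in young and 85.7, 86.5 and 73.9 in old samples. The groups overlapped at a fold change of 0.04, and the interval from -0.17 to 0.26 was among the narrower ones of the set. The H3K27me3 region of 12.5 kb that began 4.52 kb upstream covered the starts of Cdhr5 and Sct. It ranged from 15.3 to 19.4 in young and from 15.8 to 18.3 in old samples, with a fold change of -0.07 and an adjusted p of 0.883.

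Irf9, the DNA-binding partner of Stat2, showed the same small size of change. H3K27ac over its start (chr14:55577001-55610500) was 72.5, 75.6 and 56.6 in young and 62.2, 70.8 and 65.7 in old samples. The old values lay inside the young range, with a fold change of -0.03 (95% confidence interval -0.27 to 0.21). The H3K27me3 region of 5.0 kb lay 12.4 kb downstream over the start of Rec8. There the fold change was -0.19 (SE 0.22), with an adjusted p of 0.757 and overlapping groups.

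**Figure D4:**
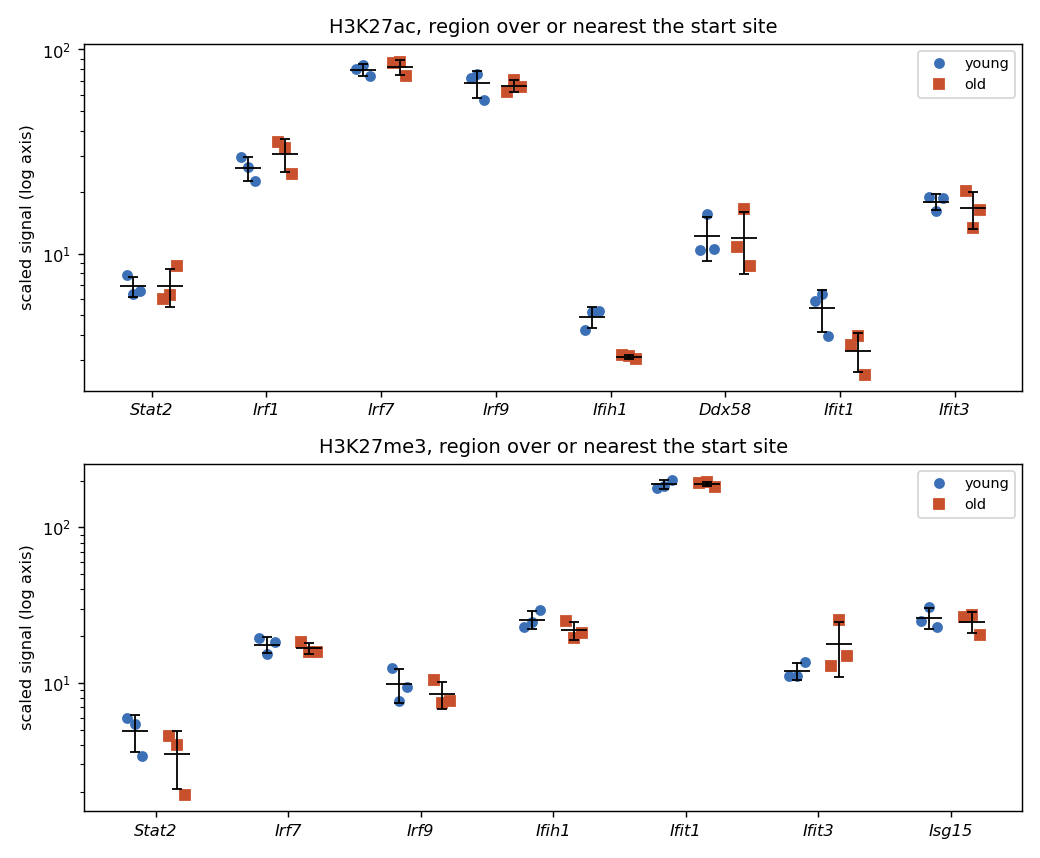
Scaled signal (log axis) in each young (blue circles) and old (orange squares) sample for the region over the start site of each member or, where none lies there, the nearest region of its window; black lines are means and error bars SD of 3 samples. Old samples lie below young ones in H3K27ac for Ifih1 and Ifit1 (adjusted p of 0.675 and 0.642), and overlap them elsewhere.

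Of the RNA sensors, Ifih1 had lower H3K27ac values in old MSCs at its start, though not past the test. This region was 2.0 kb long (chr2:62645001-62647000) and contained the ISRE match printed above. It measured 4.25, 5.19 and 5.26 in young and 3.19, 3.15 and 3.06 in old samples. Every old sample was below every young one, but these values came from only 4 to 16 reads per library. The log2 fold change of -0.57 (SE 0.38, 95% confidence interval -1.33 to 0.20) had an unadjusted p of 0.141 and an adjusted p of 0.675.

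H3K27me3 flanked Ifih1 on both sides. Upstream, a region of 15.5 kb over the start of Gca (6.25 kb from the Ifih1 start) measured 22.9, 24.5 and 29.3 in young and 25.1, 19.3 and 20.9 in old samples, a fold change of -0.23 with an adjusted p of 0.530. Downstream, a region of 24.5 kb over the start of Fap measured 28.0, 32.6 and 32.4 in young and 34.1, 37.0 and 37.4 in old samples. Here all old samples were higher, at a fold change of 0.22 (SE 0.13, unadjusted p of 0.0969, adjusted p of 0.454). Fap encodes a surface protease of fibroblasts, and its region is counted with Ifih1 only because of its distance.

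Ddx58 had 4 H3K27ac regions and no H3K27me3 region. At its start (chr4:40237501-40240500, with the ISRE match in it) H3K27ac measured 10.5, 15.6 and 10.5 in young and 10.8, 16.5 and 8.66 in old samples. The highest sample of each age was replicate 2, the groups overlapped, and the fold change was -0.05 (SE 0.25, adjusted p of 0.974). The other 3 regions changed by -0.05, 0.08 and 0.13, all with overlapping groups.

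None of the 11 H3K27me3 regions of the members passed an adjusted p-value of 0.05, where 0.488% of all H3K27me3 regions did. The signal was higher in old MSCs in 5 regions and lower in 6, with a median log2 fold change of -0.07 against -0.0077 over all regions. An unadjusted p under 0.05 was reached by 1 region, at Ifit3, which compares with 13.9% of all regions. All old samples lay above the young ones in 1 region (8.56% of all regions) and below in 1 (10.6% of all regions).

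The effectors Ifit1 and Ifit3 lie in the same gene cluster of chromosome 19, where both marks met. The start of Ifit1 was inside an H3K27me3 domain of 89.0 kb (chr19:34613001-34702000), which also held the start of Ifit1bl2. Its scaled H3K27me3 signal was 180, 186 and 202 in young and 193, 195 and 183 in old samples. The groups overlapped, and the fold change of 0.01 (95% confidence interval -0.17 to 0.19) was measured on 342 to 924 reads per library.

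A short H3K27ac region of 1.5 kb lay within that domain, 20.6 kb downstream of the Ifit1 start (chr19:34661501-34663000). It measured 5.88, 6.35 and 3.95 in young and 3.59, 3.93 and 2.55 in old samples. The highest old sample was just below the lowest young one, on 5 to 18 reads per library. The fold change was -0.60 (SE 0.37, unadjusted p of 0.114, adjusted p of 0.642).

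Downstream of Ifit3, the marks covered the same ground. An H3K27ac region of 11.5 kb (chr19:34588001-34599500) reached into the end of the gene and shared 8.5 kb with an H3K27me3 region (chr19:34590501-34599000). The shared stretch lay beyond the end of Ifit3 and mostly over the neighbouring gene Ifit1bl1. The H3K27ac region was of low density, with 1.51 scaled signal per kb, above 5.02% of all H3K27ac regions. The H3K27me3 region had 1.75 per kb, above 71.5% of all H3K27me3 regions. H3K27ac in the region of 11.5 kb was 18.9, 16.2 and 18.7 in young and 20.3, 13.4 and 16.3 in old samples, overlapping groups with a fold change of -0.12 (SE 0.20, adjusted p of 0.901). H3K27me3 was 11.1, 11.1 and 13.6 in young and 12.9, 25.6 and 14.9 in old samples. Old replicate 2 stood far above the rest while old replicate 1 lay within the young range, and the fold change of 0.50 (SE 0.21, unadjusted p of 0.0284, adjusted p of 0.284) was 0.22 without it. Ifit genes are similar in sequence, and how reads that match several copies were placed is not given in the sources used here, so values in this cluster are less certain. The same cluster held H3K27ac at the starts of Ifit2 and Ifit3b, with fold changes of 0.03 and 0.06.

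Isg15 had no H3K27ac region in its window and 3 H3K27me3 regions. The nearest, 17.5 kb long, ended 1.18 kb upstream of its start (chr4:156202001-156219500) and covered the starts of AW011738 and Perm1. It measured 24.9, 31.0 and 23.0 in young and 26.6, 27.3 and 20.3 in old samples, overlapping groups with a fold change of -0.09 (SE 0.16, adjusted p of 0.852). A region of 2.5 kb that lay 3.82 kb downstream measured 4.74, 4.43 and 3.66 in young and 3.49, 1.14 and 3.49 in old samples. Old samples were all lower there, at a fold change of -0.68 (SE 0.35, unadjusted p of 0.0642, adjusted p of 0.395), and the lowest rested on 2 reads. A further region of 4.5 kb had a fold change of 0.31 with overlapping groups.

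The balance of the marks could be given for the 6 members with regions of both, as the log2 of summed scaled H3K27ac minus the log2 of summed scaled H3K27me3 in each numbered sample. It orders members by the length of their regions as much as by density, and since the tables were scaled apart it was not tested. Whole regions were summed, also where they lay over neighbouring genes, such as Phrf1 for Irf7, Gca and Fap for Ifih1 and Ifit1bl1 for Ifit3. The change with age was positive for Stat2 (0.55), Irf9 (0.15) and Irf7 (0.12), and negative for Ifit1 (-0.61), Ifit3 (-0.60) and Ifih1 (-0.57), with a median of -0.22.

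For Ifih1 the balance was -2.28, -2.40 and -2.59 in young and -3.12, -3.24 and -2.60 in old samples. For Ifit3 it was 0.56, 0.36 and 0.34 in young and 0.29, -0.90 and 0.06 in old samples. In both, every old value was below every young one, narrowly so in 1 old sample of each, while the groups overlapped for the other 4. How often such a separation occurs over all genes with both marks was not worked out, so it is a description only. Without old replicate 2 the Ifit3 change was -0.24. The Ifih1 and Ifit1 changes came from the short H3K27ac regions of few reads (summed H3K27ac changed by -0.53 and -0.60), and that of Ifit3 from H3K27me3 (0.52). For Stat2, summed H3K27ac changed by 0.07 and the H3K27me3 region of few reads by -0.48, and without old replicate 3 the balance changed by 0.23. Most of the Stat2 H3K27ac sum came from a region of 23 kb that lay 31.4 kb downstream, over the starts of Cnpy2 and Pan2. That region was 47.2% inside the window and had a young mean of 56.9, against 6.92 at the Stat2 start.

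**Figure D5:**
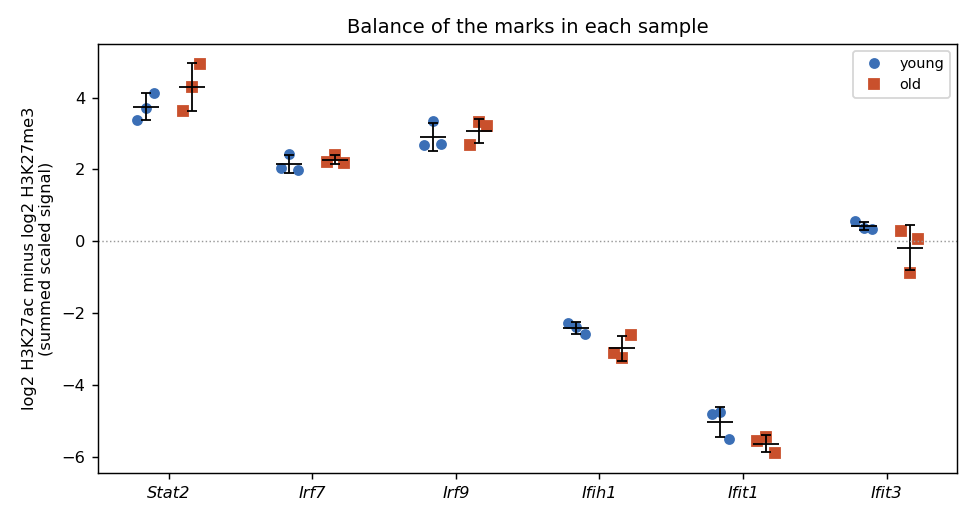
Balance of the marks (log2 summed scaled H3K27ac minus log2 summed scaled H3K27me3, y axis) in each young (blue circles) and old (orange squares) sample for the 6 members with regions of both marks; black lines are means and error bars SD of 3 samples. The young and old values separate for Ifih1 and Ifit3 and overlap for Stat2, Irf7, Irf9 and Ifit1, and the balance was not tested.

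The start regions of the wider pathway were also compared between the ages. Of 52 H3K27ac regions, 0 passed the adjusted test, 31 were higher and 21 lower in old MSCs, and the median fold change was 0.04, against 0.02 over all regions at protein-coding starts. An unadjusted p under 0.05 was reached by 5 of them (9.62%), close to the 7.83% of all 8408 H3K27ac regions at starts. Igtp, an immunity-related GTPase, had a fold change of -1.90 (adjusted p of 0.265) in a region of 0.5 kb with few reads. Usp18, the protease that removes Isg15 and dampens receptor signalling, had -0.88 (adjusted p of 0.342), and Gbp2, a guanylate-binding protein, had -0.52 (adjusted p of 0.473). Jak1, the receptor kinase, had -0.18 over 123.5 kb (adjusted p of 0.307), and Irf5 had 0.63 (adjusted p of 0.453).

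Of 22 H3K27me3 regions at pathway starts, 0 passed, 5 were higher and 17 lower in old MSCs, with a median of -0.07. Regions at starts leaned the same way over the whole table, with 3520 lower and 1971 higher of 5491 and a median of -0.06. An unadjusted p under 0.05 was reached by 1 of the 22 pathway regions (4.55%), against 17.6% of all H3K27me3 regions at starts. The smallest unadjusted p, 0.0499, belonged to the domain of 181.5 kb over Oas2 and Oas3, which sense double-stranded RNA and activate RNase L (fold change -0.16, adjusted p of 0.360). This domain also covered the starts of Cfap73, Dtx1, Oas1e and Rasal1, so its signal cannot be assigned to the Oas genes alone. Next were the region over the ligand gene Ifnk and over Mob3b with -0.20 and the domain over Rsad2, Cmpk2 and Rnf144a with -0.15. Both had all old samples below the young ones, with adjusted p-values of 0.380 and 0.398. Such a separation was seen in 2 of the 22 regions, and in 904 of all 5491 H3K27me3 regions at starts. The region at Ifit1bl1 followed with 0.52 (adjusted p of 0.452). The last is the second H3K27me3 region of the Ifit3 window and also enters the Ifit3 balance.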

How the data were processed

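CUT&RUN libraries for H3K27ac and H3K27me3 from young and old MSCs were taken as 1 table of called regions per mark. The authors deposited a signal per region and library, named RPKM but divided by a constant length, taken here as 0.5 kb. In every column 100% of values were whole multiples of the value of 1 read (tolerance 0.01 reads), so whole reads were recovered. The regions also carry the submitters' state per age, which was not used. The submitters' processing notes name Bowtie2, Picard and mm10 (GRCm38). The caller, the roles and the versions are not given in the sources used here. Of columns with values per sample, 0 were unused. The publication supplied with the series reports other libraries and served for style only.

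Genes followed the GENCODE M21 basic annotation and promoter sequences RefSeq (GRCm38.p6). Libraries were scaled within each mark by median-of-ratios (RLE) factors, and log2(signal + 0.5) was fitted with limma 3.58.1 (R 4.3.3; trend, robust; two-sided; no block), with Benjamini-Hochberg adjustment over all regions of the table and calls at 0.05. Fold changes on this scale understate those of low regions. edgeR 4.0.16 and DESeq2 1.42.0 on the recovered reads were alternatives, beside other scalings, pseudocounts of 0.1 and 2, a filter on low values, narrower windows and leaving out each replicate. Scripts were tested on simulated data.

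All members were named with the region over or nearest to the start, other regions of a window at an adjusted p under 0.05, or an unadjusted one without overlap of the groups, and up to 5 pathway regions per mark by p. The other regions given were added after their values were seen. Members and lists were chosen with earlier results of these data known.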

Additional observations from a re-analysis of the deposited data

How the results depend on the processing

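No member region and no start region of the pathway list was called under any alternative run, and the smallest adjusted p of a member region was 0.271 to 0.978 in H3K27ac and 0.141 to 0.652 in H3K27me3 over 15 settings per mark. edgeR on the recovered reads called 96 H3K27ac and 394 H3K27me3 regions of the whole tables and DESeq2 6 and 76, against 26 and 137 with limma. At an unadjusted p under 0.05, edgeR found 1 member region in each mark and DESeq2 0. The same counts on the pathway list were added after the data were seen. Without scaling the median of all regions shifted to -0.12 for H3K27ac and -0.13 for H3K27me3. The member medians moved with it to -0.15 and -0.19, and Irf7 H3K27ac (-0.076) and Ifit1 H3K27me3 (-0.11) turned direction. Stat2 start H3K27ac turned to 0.00060 with a pseudocount of 2 and to 0.0032 with DESeq2. Leaving out each replicate, the member median ranged from -0.07 (without young replicate 3) to 0.05 (without young replicate 2) for H3K27ac and from -0.14 (without old replicate 1) to 0.040 (without old replicate 3) for H3K27me3. The small changes at starts crossed 0 for H3K27ac at Stat2 (-0.16 to 0.094), Irf7 (-0.0083 to 0.12), Irf9 (-0.16 to 0.045), Ddx58 (-0.30 to 0.15) and Ifit3 (-0.27 to 0.024), and for H3K27me3 at Ifit1 (-0.027 to 0.057) and Isg15 (-0.18 to 0.050). The median change of the balance ranged from -0.30 to -0.11. With windows of 5 kb only 2 members kept regions of both marks (median -0.25), against 6 in the other settings. With 3 members positive and 3 negative, the median describes none of them.

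Replicate numbers were shared between young and old samples, and no sign of pairing by number was seen. Same-numbered samples deviated from their group means with correlations of -0.054 to 0.066 for H3K27ac and -0.078 to 0.043 for H3K27me3. Differently numbered ones ranged from -0.096 to 0.075 and from -0.128 to 0.133. These values cannot show whether samples of the same number were handled together. With the replicate block, 0 member regions were called in either mark, and the medians stayed at -0.03 and -0.07. Regions of few reads, such as those at the Ifih1 start and downstream of Ifit1 and Isg15, could show only large changes at this depth.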

Other observations

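The marks were also read at other genes with the same ISRE letters in the promoter window, again without chromosome 18. Of 659 further protein-coding genes with a match, 46.7% had an H3K27ac region within 1 kb of the start and 31.9% an H3K27me3 region, against 53.4% and 32.8% of the 16522 protein-coding genes with a promoter in the table. Their 287 H3K27ac start regions had a median log2 fold change of 0.01 between old and young MSCs, with 150 higher, 137 lower and 0 called by limma (22 at an unadjusted p under 0.05, or 7.67%, where all H3K27ac regions at starts had 7.83%). Their 195 H3K27me3 start regions had a median of -0.05, with 71 higher, 124 lower (63.6%), 2 called (1.03%) and 39 at an unadjusted p under 0.05 (20.0%). Over all H3K27me3 regions at starts the median was -0.06, with 64.1% lower, 0.728% called and 17.6% at that unadjusted p. These counts describe letters in a window and were not tested.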
